A study of Homo sapiens with 12 samples.

Results

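MKN1 and AGS are established human stomach cancer cell lines, and their expression profiles were set against each other under matched treatment. The 8 arrays described were 1 MKN1 array and 1 AGS array for each of 4 treatments, DMSO (the solvent control), Rhosin, JK136 and JK139, out of 12 arrays in the series. The other 4 arrays held SNU601 cells under the same treatments and entered only the estimate of the spread and a closing comparison of levels. All lines were grown in RPMI-1640 medium with fetal calf serum to near confluence. The series concerns RHOA, a small GTPase of the cytoskeleton, and Rhosin is an inhibitor designed to block the exchange factors that load RHOA with GTP. JK136 and JK139 are compounds known here only by their codes. The labels used here state neither doses nor exposure times. The labels name no engineered allele, and each line stands for 1 tumour only.

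Gastric carcinomas arise from the glandular epithelium of the stomach, whose cells are held together by tight junctions and desmosomes and secrete mucins, trefoil peptides and digestive proteases. Carcinoma cell lines keep this epithelial programme to different degrees, and some instead express genes typical of mesenchymal cells, such as those for vimentin, fibronectin and the ZEB and SNAI repressors. The MKN1 line comes from an adenosquamous carcinoma of the stomach and AGS from a gastric adenocarcinoma. RHOA acts in both kinds of cell as a switch between actin contraction, adhesion and movement.

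Each value is the log2 signal of 1 transcript cluster, a probe group designed against 1 transcribed region, after robust multi-array averaging (RMA), so that a difference of 1 is a 2-fold difference. Because probes differ in brightness, levels of different genes are not comparable, and low signals compress differences. Array medians lay between 4.14 and 4.20. Over all 53617 clusters the Pearson correlation across clusters was 0.985 to 0.986 between MKN1 arrays, 0.978 to 0.987 between AGS arrays and 0.927 to 0.933 between arrays of different lines among these 8. Each line had 1 array per treatment, so the 4 treatments stood in for replicates, and the spread behind each test was that of the line difference between treatments. The labels give no culture, extraction or hybridization batch, and a batch that differed between the lines cannot be told apart from the lines. Nor can the arrays tell fewer expressing cells from less RNA per cell.

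The lines differed in most tested genes. Of 8930 tested genes, 3253 were higher in MKN1 cells than in AGS cells (36.4%) and 2728 were lower (30.5%), at an adjusted p under 0.05 in limma. The levels of the 4 MKN1 arrays and the 4 AGS arrays did not overlap in 5346 genes (59.9%). A difference of at least 2-fold was called for 1520 genes, 817 higher in MKN1 cells (9.15%) and 703 lower (7.87%). The balance turned with the filter on low values, to 488 higher and 526 lower when it stood at the 60th percentile of mean level instead of the 40th. Of these 1520 genes, 1518 had the same sign in all 4 treatment pairs and 1516 did not overlap between the lines. The median difference over all tested genes was 0.03 and the median standard error 0.10 on the log2 scale. At least 8-fold differences were called for 122 genes higher in MKN1 cells and 51 lower, and at least 32-fold differences for 21 higher and 7 lower. Array levels varied less among the MKN1 arrays, with a median SD of 0.12 over genes, than among the AGS arrays, with 0.15, and the SD was larger in AGS cells for 5850 genes (65.5%).

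**Figure D1:**
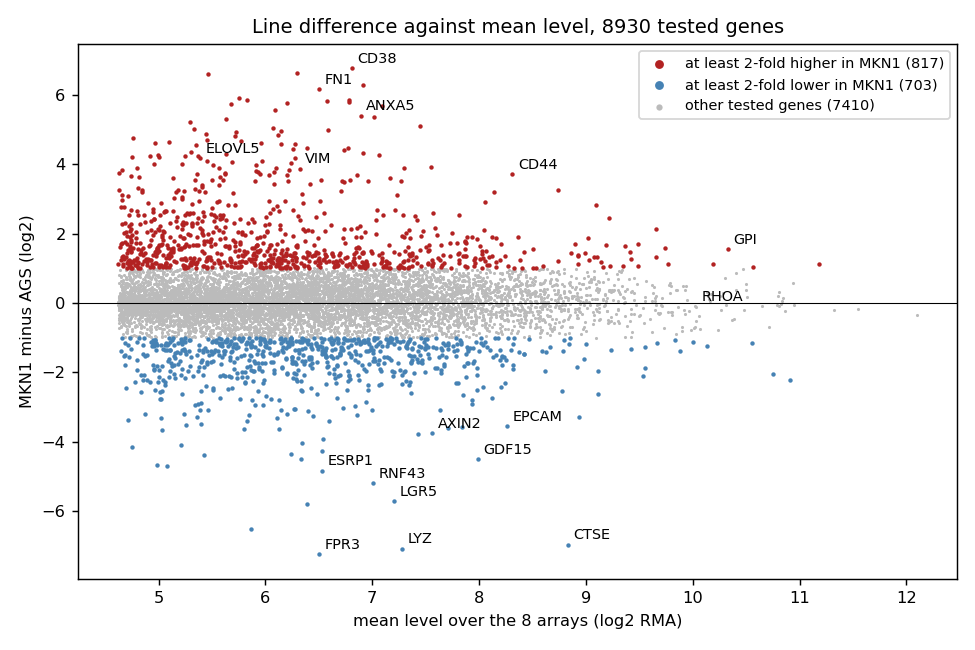
Each point is 1 of 8930 tested genes, with its mean level over the 8 arrays (log2 RMA, x axis) and its MKN1 minus AGS difference (log2, y axis); red and blue points were called at least 2-fold higher (817) or lower (703) in MKN1 cells. Large differences occur at all but the highest levels, and RHOA lies close to 0.

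The 10 named genes with the highest differences included surface and matrix proteins. Symbols starting with LOC or LINC, antisense and uncharacterised symbols were not named, which left out LOC650226, a transcribed pseudogene whose difference of 6.60 ranked below those of CD38 and HLTF only. CD38, an enzyme on the cell surface that consumes NAD, had levels of 10.38, 10.19, 9.97 and 10.27 in MKN1 cells, against 3.57, 3.51, 3.52 and 3.12 in AGS cells, taking the treatments in the order DMSO, Rhosin, JK136 and JK139, as in every such list of values. The difference was 6.77 ± 0.11 (SE), with an adjusted p of 9e-13, or 109-fold. HLTF, a helicase-like protein that remodels stalled replication forks, had levels of 9.43, 9.48, 9.69 and 9.84 in MKN1 cells, against 3.15, 2.82, 3.04 and 2.94 in AGS cells, a difference of 6.62 ± 0.10 (SE). Both genes were high on every MKN1 array and low on every AGS array. FN1, which encodes fibronectin, had levels of 9.55, 9.49, 9.68 and 9.64 in MKN1 cells, against 3.49, 3.42, 3.30 and 3.46 in AGS cells, a 72.1-fold difference (6.17 ± 0.08 (SE), adjusted p = 2.43e-13). The matrix genes EDIL3, an integrin ligand, and LUM, the proteoglycan lumican, differed by 5.90 ± 0.16 (SE) and 5.86 ± 0.16 (SE). The matricellular gene CCN3 and IGFBP3, which binds insulin-like growth factors, differed by 5.84 ± 0.12 (SE) and 5.80 ± 0.11 (SE). MAMDC2 (6.29), RASSF8, a Ras-association domain protein (5.83), and NUDT19, a coenzyme A hydrolase (5.77), completed the group. Over these 10 genes no MKN1 array lay below 8.19 (LUM under JK136), and no AGS array lay above 4.21 (IGFBP3 under JK136).

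The 10 lowest differences included secreted and adhesion proteins of gut epithelium. FPR3, a formyl peptide receptor, had levels of 2.91, 3.0, 2.75 and 2.83 in MKN1 cells, against 10.09, 10.11, 10.05 and 10.26 in AGS cells, a 153-fold difference (-7.25 ± 0.10 (SE), adjusted p = 2.43e-13). LYZ, lysozyme, had levels of 3.77, 4.04, 3.52 and 3.61 in MKN1 cells, against 10.73, 10.17, 11.17 and 11.25 in AGS cells, and the AGS arrays spread by about 1 unit among treatments while remaining far above MKN1. CTSE, cathepsin E, an aspartic protease of the stomach surface epithelium, had levels of 5.09, 4.98, 5.44 and 5.88 in MKN1 cells, against 12.27, 12.26, 12.39 and 12.36 in AGS cells, a difference of -6.97 ± 0.13 (SE). The carcinoembryonic antigen genes CEACAM6 and CEACAM5, which encode adhesion molecules of gut epithelium, differed by -6.53 ± 0.15 (SE) and -5.79 ± 0.23 (SE). CEACAM5 also varied within AGS cells, with levels of 3.0, 4.37, 3.12 and 3.50 in MKN1 cells, against 9.50, 10.45, 8.18 and 9.03 in AGS cells, and was highest under Rhosin in both lines. LGR5, a stem cell receptor for R-spondins, had levels of 4.28, 4.79, 4.07 and 4.28 in MKN1 cells, against 10.08, 9.68, 10.22 and 10.27 in AGS cells. RNF43 (-5.19 ± 0.12 (SE)), a ubiquitin ligase that removes Frizzled receptors, and ESRP1 (-4.84 ± 0.11 (SE)), a splicing factor of epithelial cells, were also on the list. ZNF544 (-4.71 ± 0.32 (SE)) and CPA6, a carboxypeptidase (-4.67 ± 0.20 (SE)) completed the group. The levels of these 20 genes, picked for their large differences, did not overlap between the lines, beside 59.9% of all tested genes.

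**Figure D2:**
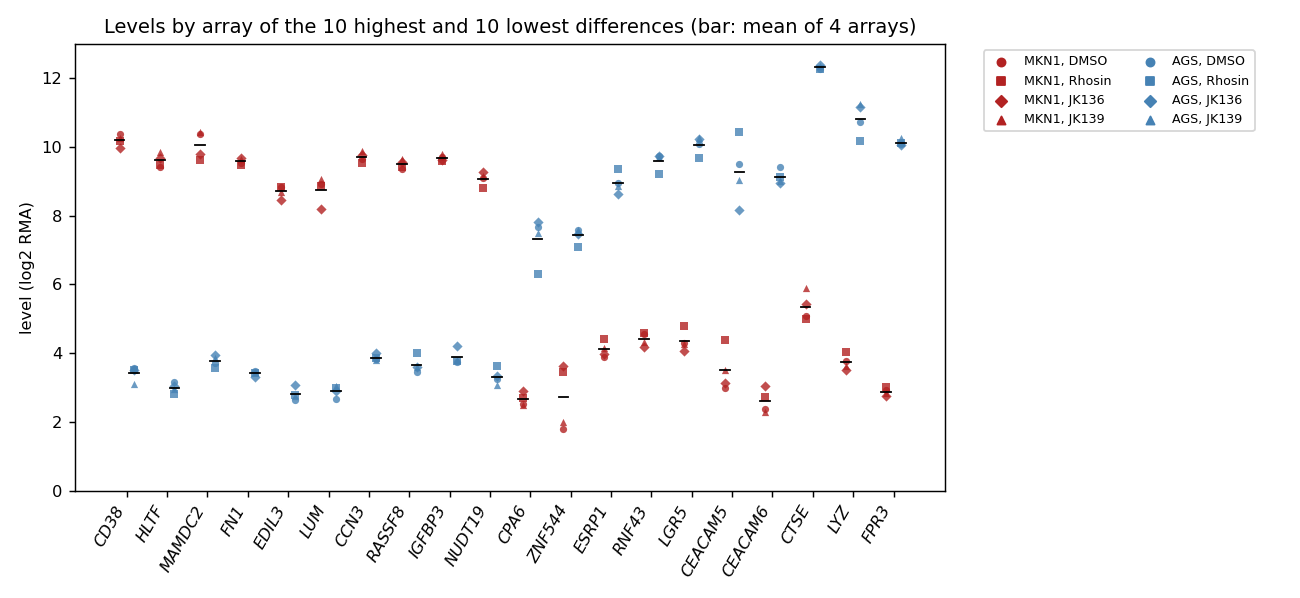
Levels (log2 RMA, y axis) of 20 genes, those with the 10 top MKN1 minus AGS differences apart from LOC650226 and the 10 bottom ones; each point is 1 array, MKN1 in red and AGS in blue, with the shape giving the treatment and the bar the mean of 4 arrays. The lines are separated for all 20 genes, which were picked for their large differences, and CEACAM5 in AGS cells and ZNF544 in MKN1 cells show the widest spread between treatments.

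Epithelial genes were lower in MKN1 cells as a group. Of 41 listed genes for epithelial adhesion, splicing and polarity, 30 had a symbol on the array and passed the filter on low values, and 28 were called lower in MKN1 cells against 30.5% of all tested genes, 21 of them at least 2-fold, while 1 was higher. The median difference was -1.43 over the 4 treatments and -1.47 in the DMSO pair alone, beside 0.03 over all tested genes. EPCAM, the epithelial cell adhesion molecule, had levels of 6.23, 6.32, 6.73 and 6.67 in MKN1 cells, against 10.12, 10.0, 10.04 and 10.0 in AGS cells, a difference of -3.55 ± 0.11 (SE), with an adjusted p of 5.75e-11. It was lower on every MKN1 array than on any AGS array. The splicing factor ESRP1 had levels of 3.90, 4.42, 3.96 and 4.16 in MKN1 cells, against 8.94, 9.37, 8.62 and 8.86 in AGS cells, and its paralog ESRP2 differed by -1.28 ± 0.08 (SE). The transcription factor GRHL2, which drives epithelial genes, differed by -3.63 ± 0.09 (SE), and its relative GRHL1 by -1.45 ± 0.14 (SE). Tight junction genes followed, with CLDN7 (claudin 7) at -3.57, OCLN (occludin) at -2.34, MARVELD3 at -2.28 and MARVELD2 (tricellulin) at -1.87. Among desmosomal genes DSC2 (desmocollin) differed by -3.93, DSG2 (desmoglein) by -1.34, JUP (plakoglobin) by -1.40 and DSP (desmoplakin) by -1.07, whereas PKP2 (plakophilin) differed by -0.33. DSP and PKP2 thus kept levels of 9.30 ± 0.15 and 9.29 ± 0.13 in MKN1 cells, against 10.37 ± 0.17 and 9.62 ± 0.09 in AGS cells (SD, n = 4 each). CLDN3 was the member called higher, at 0.56 ± 0.08 (SE), and the transcription factor EHF was not called, at 0.19 (95% interval 0.01 to 0.37; adjusted p = 0.0595). Genes on the list without a symbol here were not analysed.

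Promoters are shown for epithelial genes because the members moved together and because ZEB and SNAI repressors are known to bind the E-box CAGGTG. RefSeq promoter sequences of the build GRCh38.p14 matched 16 of the tested members, and the motif (either strand, no overlap with the other motif searched) occurred in the 250 bases before the start site in 6 of them (37.5%), compared with 16.1% of the 6954 tested genes with a promoter and 17.5% of all 27305 promoters. With so few members no weight is put on the share, and a match is a description of letters and not of a bound site. Sequences run 5′ to 3′ on the gene's strand, and capitals mark CAGGTG or its reverse complement, which the promoter of the polarity gene CRB3 holds 5 times.
CRB3, chr19:6464021-6464270, plus strand: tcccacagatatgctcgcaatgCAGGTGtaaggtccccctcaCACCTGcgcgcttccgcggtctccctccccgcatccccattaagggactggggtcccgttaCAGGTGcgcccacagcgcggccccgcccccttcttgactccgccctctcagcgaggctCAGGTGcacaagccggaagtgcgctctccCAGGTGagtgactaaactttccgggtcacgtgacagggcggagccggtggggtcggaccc
OCLN, chr5:69492297-69492546, plus strand: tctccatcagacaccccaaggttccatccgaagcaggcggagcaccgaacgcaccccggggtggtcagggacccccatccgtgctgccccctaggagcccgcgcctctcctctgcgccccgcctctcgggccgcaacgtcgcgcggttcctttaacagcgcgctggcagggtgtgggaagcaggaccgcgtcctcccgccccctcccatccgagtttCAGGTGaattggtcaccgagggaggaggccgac
DSC2, chr18:31102422-31102671, minus strand: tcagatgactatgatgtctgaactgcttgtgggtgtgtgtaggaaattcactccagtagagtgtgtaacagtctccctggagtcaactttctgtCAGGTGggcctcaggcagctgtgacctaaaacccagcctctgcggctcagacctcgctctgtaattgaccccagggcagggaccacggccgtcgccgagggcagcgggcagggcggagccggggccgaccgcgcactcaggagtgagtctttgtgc
CRB3 differed by -1.37 ± 0.12 (SE) between the lines, and OCLN and DSC2, with 1 match each, by -2.34 ± 0.12 (SE) and -3.93 ± 0.12 (SE). CLDN7 and CEACAM1, with differences of -3.57 and -3.09, had no match in this window.

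Most tested mesenchymal genes were higher in MKN1 cells. Of 56 listed genes, 31 had a symbol and 24 were tested, with 18 called higher (17 at least 2-fold) and 4 lower, against 36.4% higher and 30.5% lower of all tested genes, and a median difference of 2.70 (2.45 in the DMSO pair). Of the 31, 25 averaged at or above the filter value in MKN1 cells and 15 in AGS cells. Some members were thus tested only through their MKN1 levels, which favours higher calls. Among those not tested, CAVIN2 differed by 1.14, whereas PRRX1, TWIST1, THY1, ZEB2, TWIST2 and DCN differed by -0.26 to 0.06. The intermediate filament gene VIM had levels of 8.20, 8.12, 8.47 and 8.25 in MKN1 cells, against 4.27, 4.39, 4.47 and 4.40 in AGS cells, a 14.7-fold difference (3.88 ± 0.11 (SE), with an adjusted p of 5.75e-11). CD44, a hyaluronan receptor, differed by 3.72 ± 0.12 (SE), TNC (tenascin C) by 4.62 ± 0.12 (SE), FBN1 (fibrillin 1) by 3.89 ± 0.10 (SE) and IGFBP7 by 3.70 ± 0.11 (SE). These genes were higher in MKN1 cells on every array. The repressors of epithelial genes were unequal. ZEB1 had levels of 5.80, 6.05, 6.16 and 6.20 in MKN1 cells, against 3.49, 3.44, 3.0 and 3.24 in AGS cells, a difference of 2.76 ± 0.12 (SE), with an adjusted p of 1.57e-09. SNAI2 (Slug) had levels of 6.96, 7.11, 7.05 and 6.85 in MKN1 cells, against 3.76, 3.71, 3.18 and 4.15 in AGS cells, a difference of 3.29 ± 0.15 (SE). SNAI1 was not called, at -0.07 (95% interval -0.32 to 0.19; adjusted p = 0.642), and ZEB2, TWIST1 and TWIST2 lay under the filter in both lines. The collagen crosslinking enzymes LOX (2.31) and LOXL2 (2.67) and the caveolar coat gene CAVIN1 (3.11) were higher. Lower in MKN1 cells were the actin-binding genes TAGLN (transgelin) at -2.53 ± 0.13 (SE), CALD1 (caldesmon) at -1.66 ± 0.15 (SE) and TPM1 (tropomyosin 1) at -0.83 ± 0.12 (SE), whereas TPM2 and MSN (moesin), which also bind actin, were higher at 2.06 ± 0.11 (SE) and 0.72. GAS6, the ligand of the AXL receptor, was lower in MKN1 cells at -1.55 ± 0.08 (SE), while AXL itself was higher.

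**Figure D3:**
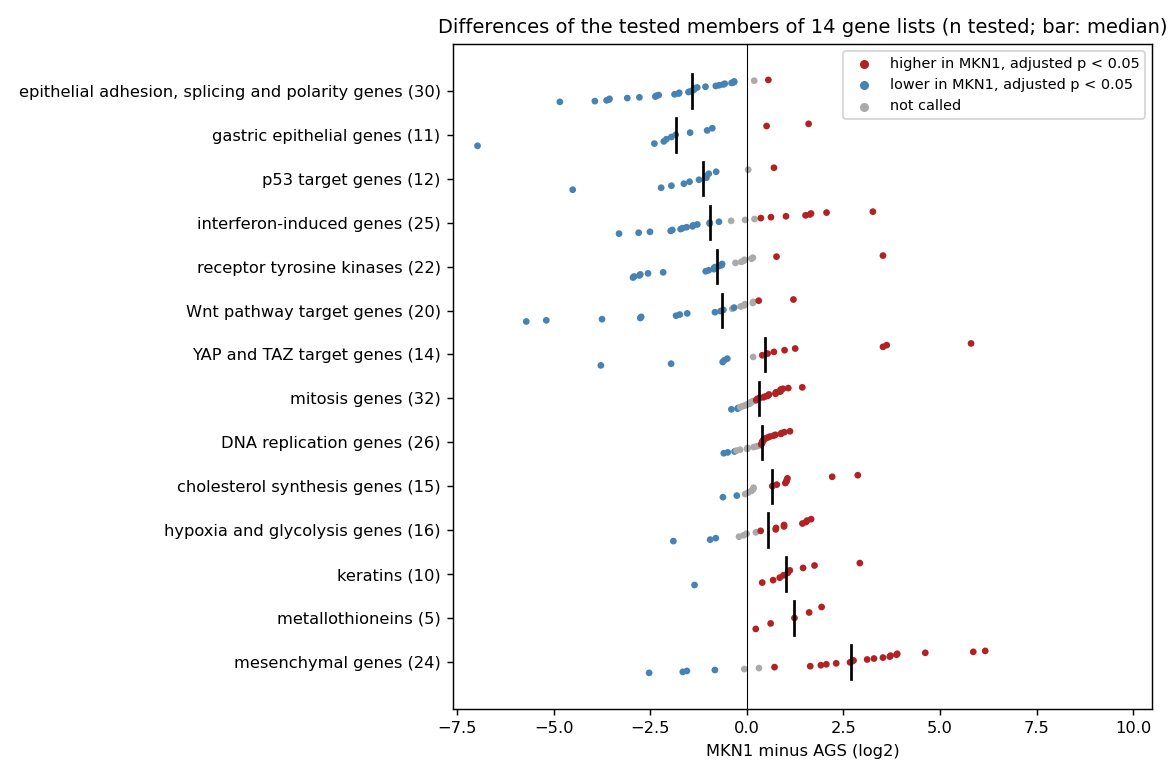
Each point is the MKN1 minus AGS difference (log2, x axis) of 1 tested member of a gene list (rows, with the number tested); red and blue members were called higher or lower in MKN1 cells, grey ones were not called, and the black bar is the list's median. Epithelial and p53 target genes lie mostly left of 0 and mesenchymal genes mostly right.

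The microRNA genes of the miR-200 and miR-205 families, whose products repress ZEB1 and ZEB2, are shown because they form a known circuit with ZEB1. All 6 with a symbol lay under the filter on low values, so their levels are given without a test. Mature sequences are from RefSeq on GRCh38.p14, capitals mark the seed (bases 2 to 8), and the array clusters cover the precursor genes and do not separate the arms. The first 3 below share the seed AAUACUG, the next 2 the seed AACACUG, and miR-205 has its own.
hsa-miR-200b-3p: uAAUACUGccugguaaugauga
hsa-miR-200c-3p: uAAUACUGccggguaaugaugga
hsa-miR-429: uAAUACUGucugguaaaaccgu
hsa-miR-141-3p: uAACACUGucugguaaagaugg
hsa-miR-200a-3p: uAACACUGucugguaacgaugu
hsa-miR-205-5p: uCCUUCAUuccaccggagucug
MIR200C had levels of 1.63, 2.71, 2.69 and 2.68 in MKN1 cells, against 5.04, 4.44, 4.52 and 5.32 in AGS cells, and its neighbour MIR141 on chromosome 12 had levels of 3.87, 4.05, 3.93 and 3.94 in MKN1 cells, against 5.44, 4.91, 5.36 and 5.05 in AGS cells. MIR205 had levels of 3.39, 2.98, 3.63 and 2.79 in MKN1 cells, against 5.46, 4.45, 5.06 and 5.56 in AGS cells. For these 3 the lines did not overlap, with mean differences of -2.40, -1.24 and -1.94. Of the chromosome 1 cluster, MIR200B differed by 0.04 with overlapping arrays, whereas MIR200A and MIR429, at -0.73 and -0.84, did not overlap.

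Tested genes of gastric differentiation were mostly lower in MKN1 cells. Of 22 members with a symbol, 11 lay under the filter on low values, among them GKN1 (1.91 ± 0.11 in MKN1 cells and 1.97 ± 0.27 in AGS cells, SD, n = 4 each) and TFF2 (4.08 ± 0.28 in MKN1 cells and 3.68 ± 0.35 in AGS cells). Of the 11 tested members 9 were lower, 8 at least 2-fold, and 2 were higher, against 30.5% lower and 36.4% higher of all tested genes, with a median of -1.84. Of the 22, 6 averaged at or above the filter value in MKN1 cells and 12 in AGS cells. Some members were thus tested only through their AGS levels, which favours lower calls. The trefoil peptide gene TFF1 differed by -2.15 ± 0.27 (SE), the foregut transcription factors GATA4, SOX2 and FOXA1 by -2.08 ± 0.14 (SE), -2.39 ± 0.26 (SE) and -1.95 ± 0.10 (SE), and GATA6 by -1.03 ± 0.11 (SE). BARX1, a factor of the stomach mesenchyme in mouse, was higher in MKN1 cells at 1.60 ± 0.09 (SE), and PSCA, a stomach surface antigen, at 0.51 ± 0.16 (SE). The intestinal list was split, with 2 higher and 5 lower of 10 tested members. For this list and those that follow, the shares to compare are 36.4% higher and 30.5% lower of all tested genes. VIL1, the microvillus protein villin, had levels of 4.82, 3.51, 4.80 and 4.10 in MKN1 cells, against 7.74, 7.82, 8.17 and 8.04 in AGS cells. The brush border peptidases ANPEP and DPP4 were higher in MKN1 cells, at 3.73 ± 0.14 (SE) and 3.0 ± 0.15 (SE). Keratin genes did not follow the other epithelial genes. Of 10 tested keratins 9 were higher in MKN1 cells and 1 lower, with KRT7 at 2.93 ± 0.17 (SE), KRT14 at 1.75 ± 0.15 (SE), KRT19 at 1.46 ± 0.11 (SE) and KRT18 at 1.11 ± 0.08 (SE). Keratins with a symbol numbered 14, of which 11 averaged at or above the filter value in MKN1 cells and 6 in AGS cells. Some were thus tested only through their MKN1 levels, which favours higher calls. Those not tested, KRT10, KRT5, KRT4 and KRT20, differed by 1.92, 1.43, 0.44 and -0.29. KRT18 and KRT19, keratins of simple epithelium, averaged 10.75 ± 0.07 and 9.72 ± 0.10 in MKN1 cells, against 9.63 ± 0.04 and 8.27 ± 0.24 in AGS cells (SD, n = 4 each). Of the squamous and basal list, with 4 higher and 1 lower of 9 tested members, TRIM29 differed by 1.58 ± 0.14 (SE) and SFN (stratifin) was not called, at 0.22. Among HOX genes, which mark position along the body axis, 5 higher and 5 lower of 16 tested members were counted, near the shares of all tested genes. HOXB5, HOXB6 and HOXB9 differed by -2.03, -2.08 and -2.06 and HOXC13, HOXD10 and HOXC10 by 2.21, 1.73 and 1.15.

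Transcriptional targets of the Wnt pathway, in which stabilised β-catenin acts with TCF factors, were more often lower than higher in MKN1 cells. Of 20 tested members 12 were lower, 8 at least 2-fold, and 2 were higher, against 30.5% lower and 36.4% higher of all tested genes, with a median of -0.64 (-0.67 in the DMSO pair). LGR5 differed by -5.71 ± 0.17 (SE), with an adjusted p of 4.97e-11. AXIN2, a feedback inhibitor, had levels of 5.79, 5.52, 5.93 and 5.52 in MKN1 cells, against 9.60, 9.13, 9.52 and 9.49 in AGS cells, a difference of -3.75 ± 0.10 (SE). The feedback inhibitors NKD1 (-2.73 ± 0.08 (SE)), ZNRF3 (-1.83 ± 0.10 (SE)) and RNF43 (-5.19 ± 0.12 (SE)) were lower as well, as were the transcription factors SP5 (-1.73 ± 0.09 (SE)) and PROX1 (-1.54 ± 0.18 (SE)). NKD2, also on the list, was higher in MKN1 cells at 0.31 ± 0.08 (SE). APCDD1, another inhibitor of the pathway, was higher in MKN1 cells at 1.21 ± 0.09 (SE). CCND1, cyclin D1, chosen after its value was seen, was not called, at -0.16 (95% interval -0.40 to 0.07; adjusted p = 0.204). RefSeq promoters matched 11 tested members, and the core letters of TCF sites, CTTTGA or CTTTGT on either strand, occurred in the 250 bases before the start in 3 of them (27.3%), compared with 15.4% of the tested genes with a promoter and 22.9% of all 27305 promoters, and no weight is put on a share of so few members. Capitals mark the matches in SP5, with 4, and RNF43, with 1, both lower in MKN1 cells.
SP5, chr2:170715087-170715336, plus strand: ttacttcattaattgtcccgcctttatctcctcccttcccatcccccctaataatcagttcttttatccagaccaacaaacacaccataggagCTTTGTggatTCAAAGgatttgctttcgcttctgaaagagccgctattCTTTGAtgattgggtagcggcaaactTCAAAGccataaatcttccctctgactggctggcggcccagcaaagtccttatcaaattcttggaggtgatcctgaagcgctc
RNF43, chr17:58417535-58417784, minus strand: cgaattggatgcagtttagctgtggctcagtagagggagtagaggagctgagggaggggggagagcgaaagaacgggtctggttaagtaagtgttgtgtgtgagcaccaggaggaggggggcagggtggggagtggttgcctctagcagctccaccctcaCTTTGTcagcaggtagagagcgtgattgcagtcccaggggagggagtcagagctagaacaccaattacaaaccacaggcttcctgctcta
The remaining promoter with matches was that of DKK1, a secreted inhibitor with 3 of them, and DKK1 was not called between the lines, at -0.37.

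RHOA, the GTPase named in the title of the series, did not differ detectably at the RNA level. Its levels were 10.02, 10.04, 9.88 and 9.98 in MKN1 cells, against 10.10, 10.23, 9.99 and 10.0 in AGS cells, a difference of -0.10 (95% interval -0.26 to 0.05; adjusted p = 0.225). The interval excludes a difference of 2-fold in either direction. RHOB, an endosomal GTPase that responds to stress, had levels of 6.99, 7.07, 7.14 and 7.11 in MKN1 cells, against 8.39, 8.76, 7.69 and 8.13 in AGS cells, a difference of -1.16 ± 0.16 (SE), with an adjusted p of 4.78e-05. The AGS arrays ranged over more than 1 unit, with the highest level under Rhosin and the lowest under JK136, and none reached down to the MKN1 arrays. RHOU differed by -1.27 ± 0.11 (SE), RHOQ by -0.51 ± 0.09 (SE), and the mitochondrial RHOT1 and RHOT2 by -0.41 ± 0.07 (SE) and -0.35 ± 0.08 (SE). RND3, a GTPase that opposes RHOA signalling, was higher at 0.96 ± 0.11 (SE), as were RHOF (1.11 ± 0.10 (SE)) and RHOG (0.43 ± 0.15 (SE)). RHOC was not called, at -0.25 (95% interval -0.50 to 0.01; adjusted p = 0.0802), nor were RHOBTB2 (0.03) and RHOBTB3 (0.09).

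The exchange factor ARHGEF10 had levels of 6.15, 6.10, 5.78 and 6.0 in MKN1 cells, against 4.21, 4.09, 3.98 and 3.93 in AGS cells, a difference of 1.95 ± 0.10 (SE). Lower genes included the cofilin kinase LIMK2 (-1.50 ± 0.09 (SE)) and the GTPase-activating proteins ARHGAP18 (-1.39 ± 0.19 (SE)), ARHGAP5 (-0.97 ± 0.09 (SE)) and ARHGAP35 (-0.76 ± 0.09 (SE)). ARHGEF11, an exchange factor for RHOA, differed by -0.86 ± 0.07 (SE). Genes induced by SRF with its actin-sensing cofactors were counted as 4 higher and 6 lower of 12 tested members, beside 36.4% higher and 30.5% lower of all tested genes. TGFB1I1 (Hic-5) was higher at 2.65 ± 0.10 (SE), while VCL (vinculin) differed by -0.57 ± 0.09 (SE) and SRF itself was not called, at 0.12 (95% interval -0.11 to 0.35; adjusted p = 0.328). Targets of YAP and TAZ, coactivators that respond to cell tension, were counted as 8 higher and 5 lower of 14 tested members, beside the same shares. ANKRD1 had levels of 5.57, 5.20, 5.64 and 5.74 in MKN1 cells, against 9.16, 9.20, 9.62 and 9.27 in AGS cells, a difference of -3.78 ± 0.22 (SE). CCN2, another classical target, differed by -0.58 ± 0.14 (SE) and MYOF (myoferlin) by -1.96 ± 0.12 (SE), whereas AXL, FJX1 and CRIM1 were higher, at 3.52 ± 0.22 (SE), 3.62 ± 0.17 (SE) and 1.25 ± 0.10 (SE).

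Among receptor tyrosine kinases, 2 higher and 14 lower of 22 tested members were counted, beside 36.4% higher and 30.5% lower of all tested genes, with a median of -0.77. AXL had levels of 9.08, 9.15, 8.85 and 9.04 in MKN1 cells, against 4.97, 5.13, 6.41 and 5.51 in AGS cells, an 11.5-fold difference (3.52 ± 0.22 (SE), with an adjusted p of 4.06e-08). MERTK, of the same receptor family, was lower in MKN1 cells, with levels of 3.39, 4.16, 3.75 and 4.15 in MKN1 cells, against 7.0, 6.68, 6.72 and 6.84 in AGS cells. MST1R (RON) differed by -2.92 ± 0.10 (SE), ERBB3 by -2.78 ± 0.14 (SE), PTK7 by -2.76 ± 0.13 (SE), FGFR2 by -2.56 ± 0.16 (SE) and EPHA1 by -2.16 ± 0.12 (SE). EGFR and MET, named after their values were seen, were not called, at 0.12 (95% interval -0.16 to 0.40; adjusted p = 0.424) and -0.06 (95% interval -0.35 to 0.23; adjusted p = 0.707). Of the EGF family ligands, EREG (epiregulin) had levels of 8.21, 8.83, 8.85 and 8.62 in MKN1 cells, against 3.54, 3.91, 3.92 and 3.31 in AGS cells, a difference of 4.96 ± 0.13 (SE). BTC (betacellulin) was lower at -0.66 ± 0.12 (SE), and HBEGF and NRG2 were not called. Matrix proteases and their inhibitors were counted as 10 higher and 5 lower of 17 tested members, beside the same shares of all tested genes. MMP1, an interstitial collagenase, had levels of 3.56, 3.27, 3.36 and 3.79 in MKN1 cells, against 5.94, 8.52, 6.77 and 6.83 in AGS cells, and the MKN1 arrays were all low. MMP14, a membrane-bound protease, was lower as well at -2.50 ± 0.10 (SE). The inhibitor TIMP3 (3.89 ± 0.09 (SE)), the membrane protease MMP16 (3.62 ± 0.15 (SE)), the kallikrein KLK7 (3.48 ± 0.13 (SE)) and the lysosomal CTSL (3.41 ± 0.14 (SE)) were higher in MKN1 cells. The calcium-dependent membrane proteins ANXA5 and ANXA1 were higher at 5.41 ± 0.10 (SE) and 3.25 ± 0.15 (SE), whereas S100A14 was lower at -2.62 ± 0.10 (SE). Of all 20 tested annexin and S100 genes, 7 were higher and 13 lower, beside the same shares. No cluster with a symbol of a collagen, laminin or integrin gene was available here, and these were not analysed.

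Tested targets of p53, the stress-activated tumour suppressor, were mostly lower in MKN1 cells. Of 25 listed genes, 13 had a symbol and 12 were tested, and those without a symbol were not analysed. Of 12 tested members 10 were lower, 8 at least 2-fold, and 1 was higher (PLK3, 0.70 ± 0.13 (SE)), against 30.5% lower and 36.4% higher of all tested genes, with a median of -1.14. GDF15, a stress cytokine, had levels of 5.03, 6.07, 6.43 and 5.41 in MKN1 cells, against 10.07, 10.62, 10.28 and 10.0 in AGS cells, a 22.7-fold difference (-4.51 ± 0.15 (SE), with an adjusted p of 1.6e-10). The pro-apoptotic genes BAX and BBC3 (PUMA) differed by -2.22 ± 0.14 (SE) and -1.63 ± 0.20 (SE), the sestrins SESN2 and SESN1 by -1.95 ± 0.15 (SE) and -1.04 ± 0.17 (SE), and AEN, TP53INP1 and TIGAR by -1.48 ± 0.11 (SE), -1.24 ± 0.24 (SE) and -1.05 ± 0.11 (SE). TP53I3 was not called, at 0.04 (95% interval -0.21 to 0.28; adjusted p = 0.792).

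Interferon-induced genes were divided, with 8 higher and 14 lower of 25 tested members and a median of -0.96. Members with a symbol numbered 30, of which 21 averaged at or above the filter value in MKN1 cells and 27 in AGS cells. Some were thus tested only through their AGS levels, which favours lower calls. Among those not tested, HERC5 differed by 3.53, and IFIT2, IFI44L, IRF7 and TRIM22 by -1.76, -1.75, -0.85 and -0.40. For this list and the cytokine list below, the shares to compare are 36.4% higher and 30.5% lower of all tested genes. The mean level over the 25 members was 5.91, 5.90, 5.77 and 5.81 in MKN1 cells, against 6.32, 5.83, 6.89 and 6.31 in AGS cells, so that the groups overlapped and the order of the lines turned under Rhosin. In MKN1 cells the mean varied little between treatments, and in AGS cells it was highest under JK136 and lowest under Rhosin. IFIT1, which binds foreign RNA, had levels of 3.82, 3.49, 3.01 and 3.14 in MKN1 cells, against 6.80, 5.49, 7.93 and 6.48 in AGS cells, a difference of -3.31 ± 0.32 (SE), with an adjusted p of 2.22e-06. EPSTI1, DDX60, IFIH1 (MDA5), RSAD2 (viperin) and RIGI were lower too, at -2.80 ± 0.17 (SE), -2.51 ± 0.19 (SE), -1.97 ± 0.19 (SE), -1.93 ± 0.28 (SE) and -1.71 ± 0.18 (SE). HERC6 had levels of 6.65, 6.94, 6.85 and 6.80 in MKN1 cells, against 3.58, 3.61, 3.83 and 3.17 in AGS cells, and with IFITM2 (2.06 ± 0.10 (SE)), SAMD9 (1.66 ± 0.28 (SE)), SAMD9L (1.63 ± 0.15 (SE)) and BST2 (tetherin, 1.52 ± 0.22 (SE)) it was higher in MKN1 cells. Of the antigen presentation genes, B2M differed by -0.48 ± 0.09 (SE) and ERAP2 by -0.72 ± 0.12 (SE), and TAPBP was not called. Cytokine genes were counted as 9 higher and 7 lower of 21 tested members, with the chemokine receptors ACKR3 and CXCR4 higher at 2.86 ± 0.09 (SE) and 1.67 ± 0.17 (SE), the macrophage factor CSF1 at 1.62 ± 0.10 (SE), and LIF and CXCL16 lower at -1.51 ± 0.10 (SE) and -1.67 ± 0.09 (SE). A further 13 with a symbol lay under the filter and were not tested. Their differences over 1 in size were 3.23 for CCL2, 3.0 for IL7R, 2.22 for CCL28, 1.58 for IL7, -1.16 for CXCL3 and -1.13 for CXCL10.

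Metabolic genes differed in smaller steps with a few large ones. For each list counted below, the shares to compare are 36.4% higher and 30.5% lower of all tested genes. ELOVL5, an elongase of polyunsaturated fatty acids, had levels of 7.79, 7.71, 7.17 and 7.25 in MKN1 cells, against 3.23, 3.59, 3.21 and 3.17 in AGS cells, a difference of 4.18 ± 0.12 (SE), with an adjusted p of 4.12e-11. The desaturases FADS1 and FADS2 were higher at 2.03 ± 0.09 (SE) and 1.17 ± 0.11 (SE), whereas the synthase FASN, named after its value was seen, was not called, at 0.01 (95% interval -0.22 to 0.24; adjusted p = 0.937). Fatty acid genes in all were counted as 8 higher and 3 lower of 16 tested members and cholesterol synthesis genes as 8 higher and 2 lower of 15 tested members, with the cholesterol list led by the sterol transporter STARD4 (2.87 ± 0.16 (SE)) and the sterol sensor INSIG1 (2.21 ± 0.19 (SE)). Of hypoxia and glycolysis genes, 9 higher and 3 lower of 16 tested members were counted, with LDHA at 1.53 ± 0.10 (SE), GPI at 1.56 ± 0.07 (SE) and the angiogenic factor VEGFA lower at -1.90 ± 0.20 (SE). All 5 tested metallothionein genes, which encode metal-binding proteins, were higher, from 0.23 for MT3, whose arrays overlapped, to 1.94 for MT2A. Of the 9 with a symbol, 5 averaged at or above the filter value in MKN1 cells and 3 in AGS cells, so some were tested only through MKN1 cells. Under the filter, MT1M differed by 1.15, and MT1B, MT1G and MT1H by -0.22, -0.18 and -0.15. MT1E and MT1F have near-identical copies that the array may not separate. NRF2 targets were counted as 6 higher and 4 lower of 12 tested members, with CBR1 at 1.46 ± 0.15 (SE) and the glutathione peroxidase GPX2 at -2.77 ± 0.16 (SE).

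Genes of cell division were slightly higher in MKN1 cells. Of 26 DNA replication genes 16 were higher, 1 at least 2-fold, and 3 lower, with a median of 0.40. For this list and those that follow, the shares to compare are 36.4% higher and 30.5% lower of all tested genes. Of 32 mitosis genes 19 were higher and 3 lower, with a median of 0.31 and the largest difference for KIF20A, a kinesin, at 1.44 ± 0.13 (SE). Housekeeping genes showed a shift of the same size, with 10 higher and 2 lower of 13 tested members and a median of 0.39, against 0.03 over all tested genes. Of that list GAPDH differed by 0.36 ± 0.08 (SE), TBP by 0.39 ± 0.10 (SE) and IPO8, an import receptor, by 2.92 ± 0.08 (SE). Of the leukocyte markers tested, CSF1R, NKG7 and CD8A were not called, while LYZ, also a gut epithelial gene, and CD68, a lysosomal protein, differed by -7.09 and 2.52 ± 0.09 (SE). Under the filter, CD2 and CD4 overlapped between the lines, and CD14 averaged 4.67 ± 0.29 in MKN1 cells and 3.33 ± 0.21 in AGS cells (SD, n = 4 each) without overlap. The summed level of the 8 leukocyte markers with a symbol was 40.54 to 41.46 in MKN1 cells and 43.72 to 44.46 in AGS cells, on the log2 scale. Without LYZ the order turned, with 36.93 to 37.69 in MKN1 cells and 32.92 to 34.29 in AGS cells. Endothelial markers were counted as 1 higher and 1 lower of 3 tested members. Of the 3 fibroblast markers with a symbol, LUM alone was tested and was higher, with means of 8.76 in MKN1 cells and 2.90 in AGS cells, so it passed the filter through MKN1 cells. DCN and THY1 were not tested and overlapped between the lines, with means of 1.96 and 4.48 in MKN1 cells, against 1.90 and 4.63 in AGS cells. The 3 tested neuroendocrine markers, SYP, INSM1 and GAST, were not called by limma, at -0.12, -0.05 and -0.01.

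Of 320 tested microRNA genes 41 were higher in MKN1 cells (12.8%, beside 36.4% of all tested genes) and 91 lower (28.4%, beside 30.5%). At least 2-fold differences were called for 12 higher and 21 lower microRNA genes. Members of a chromosome 19 cluster of microRNAs known from embryonic stem cells were high in AGS cells, and their mature sequences are shown because these genes share a seed with the miR-302 family. They were named after their values were seen.
hsa-miR-372-3p: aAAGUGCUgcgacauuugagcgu
hsa-miR-373-3p: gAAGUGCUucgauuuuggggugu
hsa-miR-302c-3p: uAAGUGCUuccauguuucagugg
MIR373 had levels of 4.28, 3.77, 3.86 and 4.39 in MKN1 cells, against 8.88, 7.91, 8.94 and 8.61 in AGS cells, a difference of -4.51 ± 0.17 (SE), with an adjusted p of 3.99e-10. MIR371A differed by -1.97 ± 0.16 (SE), and MIR372, under the filter, had levels of 2.15, 2.26, 1.91 and 2.56 in MKN1 cells, against 6.21, 5.46, 6.59 and 5.98 in AGS cells. MIR302C, on chromosome 4 and also under the filter, had levels of 2.41, 2.53, 1.78 and 2.35 in MKN1 cells, against 3.67, 3.07, 6.58 and 5.54 in AGS cells, and in AGS cells it was higher under JK136 and JK139 than under DMSO and Rhosin. Its mean difference of -2.45 was the largest of its family. MIR302A, MIR302B and MIR302D, all under the filter, differed by -0.62, -0.57 and -0.90, and the arrays of MIR302B and MIR302D overlapped between the lines. MIR3189, which lies within the GDF15 gene, differed by -4.38 ± 0.27 (SE), beside -4.51 ± 0.15 (SE) for GDF15, and whether their probes read 1 transcript was not tested. All 6 tested GAGE genes, cancer-testis antigens of near-identical sequence, were higher in MKN1 cells, by 3.90 to 4.59. Their clusters may read the same transcripts, so they count as 1 signal. The level of GAGE12C was 8.69, 8.59, 8.53 and 8.49 in MKN1 cells, against 3.76, 3.83, 4.27 and 4.09 in AGS cells. These were also named after their values were seen.

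Line differences were not spread evenly over the genome. By the positions of RefSeq on GRCh38.p14, used here for order alone, the median difference was highest on chromosome 18 (0.57, with 63.0% of 127 genes higher in MKN1 cells), chromosome 5 (0.34, 58.4% of 392) and chromosome 9 (0.30, 52.6% of 401). It was lowest on chromosome 13 (-0.30, with 54.9% of 144 genes lower), chromosome 14 (-0.28, 51.2% of 283) and chromosome 15 (-0.26, 51.4% of 288). Over all tested genes 36.4% were higher and 30.5% lower. The chromosome medians had the same sign in each of the 4 treatment pairs for these 6 chromosomes. DNA copy number was not measured. On chromosome 18 GREB1L and ACAA2, a mitochondrial thiolase, were among the higher genes, at 3.21 ± 0.10 (SE) and 5.32 ± 0.16 (SE). On chromosome 13 EPSTI1 was lower at -2.80, whereas NBEA went against the chromosome's median, with a larger difference of 4.02 ± 0.10 (SE).

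Within chromosomes, 7706 windows of 15 neighbouring tested protein-coding genes were examined, a view chosen with the data at hand and given without a test. Window medians had a 1st percentile of -0.77 and a 99th percentile of 0.98. On chromosome 12 the 15 genes from ETNK1 to IPO8 had a median of 2.17 (2.14 in the DMSO pair), with 14 higher and 1 lower in MKN1 cells, against 0.06 over the other tested genes of the chromosome. The stretch held RASSF8 (5.83), ETFRF1 (3.52), IPO8 (2.92), MED21, a Mediator subunit (2.53), FGFR1OP2 (2.53) and ERGIC2 (2.47), and only ETNK1 at its edge was lower (-1.49). On chromosome 17 the genes from IFT20 to ERAL1 had a median of 1.53, with 13 higher and 1 lower, among them SPAG5, a spindle protein (2.09), and SUPT6H, an elongation factor (1.64). VTN, vitronectin, was the gene of that stretch that was lower in MKN1 cells (-3.61 ± 0.17 (SE)). A second stretch of chromosome 17, from KLHL11 to CNTNAP1, had a median of 1.07 and included STAT3 (1.28) and STAT5A (1.76), whereas STAT5B was not called (-0.12). Stretches on chromosome 5 (RAI14 to ANXA2R, and DCP2 to ZNF474) and on chromosome 18 (RMP24 to CTIF) had medians of 1.14 each.

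The lowest windows lay among the zinc finger genes of chromosome 19. From ZNF350 to ZNF320 the median was -1.38, with 12 genes lower and 1 higher, and from ZNF548 to ZNF417 it was -1.13, with 14 lower and 0 higher. From ZNF223 to NECTIN2 it was -0.93, with 13 lower and 0 higher, while the other genes of the chromosome had medians of -0.03. ZNF814 (-3.21 ± 0.11 (SE)), ZNF772 (-2.26 ± 0.11 (SE)) and ZNF600 (-2.16 ± 0.10 (SE)) were among the lower genes. Of 154 tested ZNF symbols on chromosome 19, 74 were lower and 43 higher, with a median of -0.26, beside -0.06 for 187 ZNF symbols on other chromosomes. Over all tested genes 30.5% were lower and 36.4% higher. Zinc finger paralogs share sequence, and the array may not separate close copies. Wide stretches of chromosome 14 were also low, with medians of -0.85 from RDH11 to NUMB and -0.84 from KHNYN to MIPOL1.

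**Figure D4:**
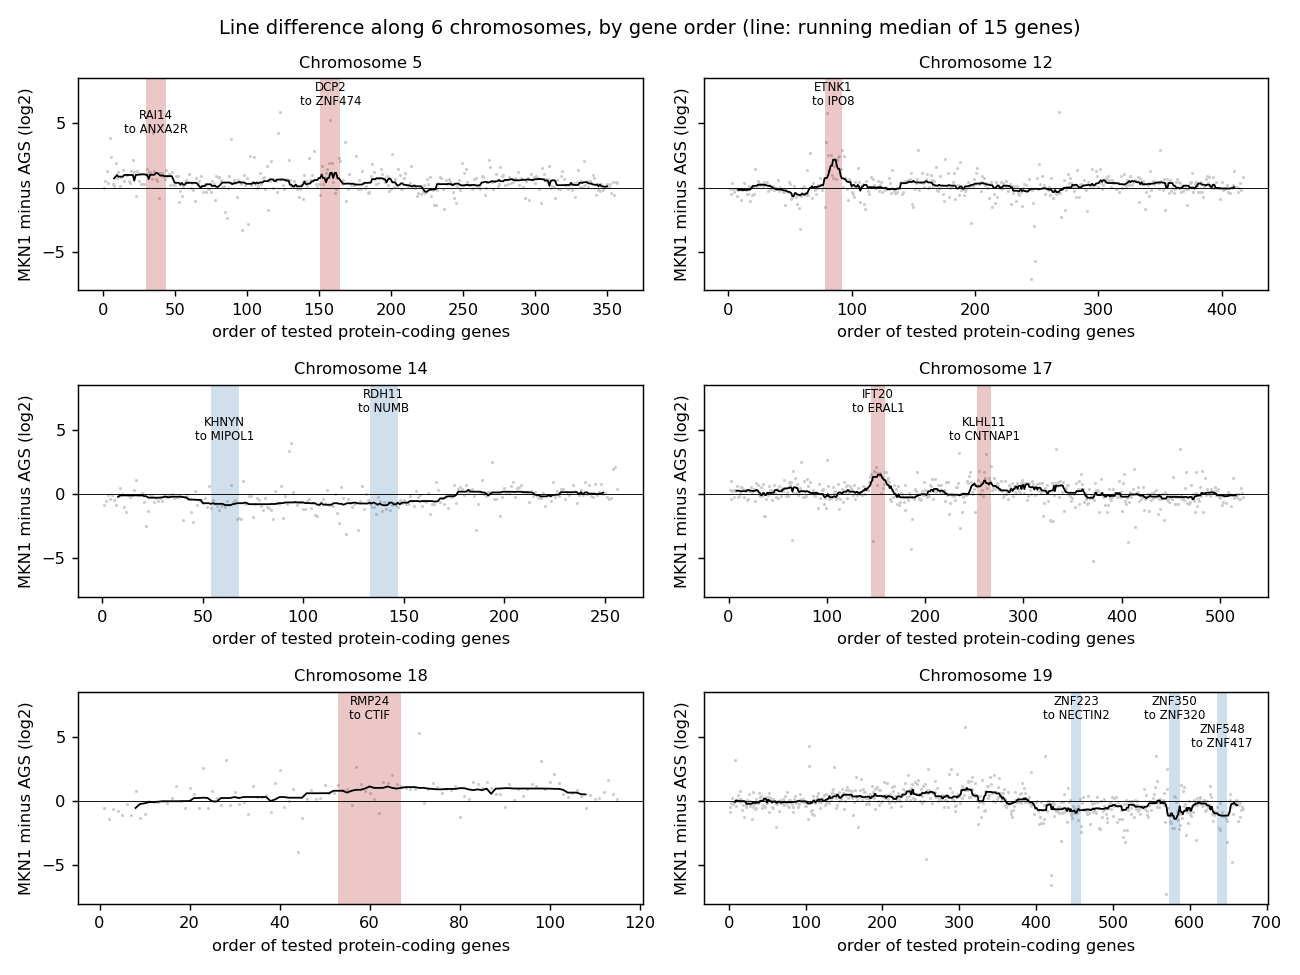
MKN1 minus AGS differences (log2, y axis) of tested protein-coding genes in their order along 6 chromosomes (x axis, rank); grey points are genes, the line is the running median of 15 genes, and shading marks the windows named in the text, red for high and blue for low. The narrow peak on chromosome 12 reaches 2.17, and the end of chromosome 19 lies below 0.

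The DMSO pair alone, 1 array of each line, gave a similar picture without a test. In it 880 of the 8930 genes were at least 2-fold higher in MKN1 cells (9.85%) and 834 at least 2-fold lower (9.34%). Of these 1714 genes, 1701 (99.2%) had the same sign in the other 3 pairs, and 1046 (61.0%) were at least 2-fold apart in all of them. Beyond the 20 genes named first, and leaving out LOC650226 (6.54 in this pair), the highest differences of this pair were PTGIS, prostacyclin synthase (5.76), PALMD (5.57), the metalloreductase STEAP4 (5.57), the surface protein CD109 (5.56) and ANXA5 (5.49). The lowest were GDF15 (-5.04), ZSCAN31 (-4.64), MIR373 (-4.60), the myosin MYO1D (-4.51) and the vault RNA VTRNA1-2 (-4.33). STEAP4 stood at 3.62 in the JK136 pair, against 5.57 in the DMSO pair. The Rhosin pair had 1656 genes at least 2-fold apart, the JK136 pair 1594 and the JK139 pair 1662.

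No gene showed a line difference that changed with the compounds by the test used. The difference over Rhosin, JK136 and JK139 minus that in DMSO was called for 0 of 8930 genes by limma (0%), with a smallest adjusted p of 0.999 and with 363 genes (4.06%) at an unadjusted p under 0.05. With 1 array per condition this test had 4 residual degrees of freedom, and absence of a call does not show that the lines responded alike. The widest gaps between the compound pairs and the DMSO pair are given as values only. MMP1 differed between the lines by -2.38 in the DMSO pair, -5.25 with Rhosin, -3.41 with JK136 and -3.04 with JK139. DBN1, the actin-binding protein drebrin, differed by 2.94 with DMSO, 1.89 with Rhosin, 1.96 with JK136 and 1.43 with JK139. PSG6, a pregnancy-specific glycoprotein, differed by -2.75 with JK136 and by -0.01 with DMSO. ZNF544 differed by -3.64 and -3.83 with Rhosin and JK136, but by -5.58 and -5.77 with JK139 and DMSO. CST4 and CRIP2 lay below the DMSO pair and VTRNA1-2, ZNF430, ZNF736 and MIR4717 above it, by 1.05 to 1.29 in size.

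**Figure D5:**
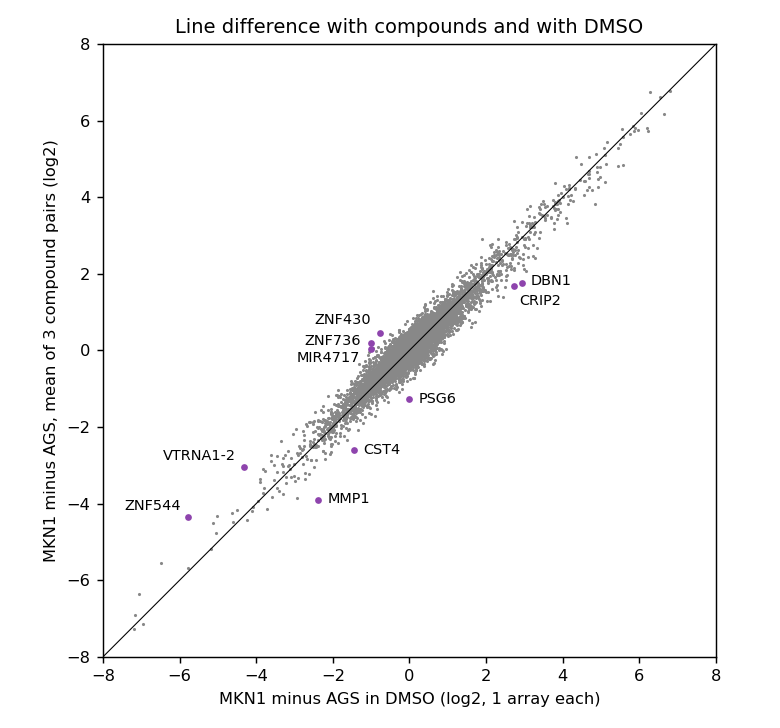
Each point is 1 of 8930 tested genes, with its MKN1 minus AGS difference in the DMSO pair (log2, x axis, 1 array each) and the mean of that difference over the Rhosin, JK136 and JK139 pairs (log2, y axis); the diagonal marks equality. Genes lie along the diagonal, and the 10 labelled in purple are those farthest from it, 5 on each side.

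The levels in SNU601 cells, the remaining line, were set beside these differences. A total of 32 genes had at least 8 on every MKN1 array and stayed below the filter value of 4.62 on every AGS array, and 6 genes showed the reverse. The 32 include GAGE12C, GAGE12H, GAGE13 and GAGE2A, whose clusters may read the same transcripts and count as 1 signal. Of the 32, SNU601 cells averaged below the filter value in 26, including these GAGE genes, CD38 (3.24), FN1 (3.50), VIM (4.16) and HLTF (3.02). SNU601 cells were at least 8 on every array in 2 others, ANXA5 (mean 9.10) and ACAA2 (mean 8.32). SULF2 averaged 8.05 in SNU601 cells without reaching 8 on every array. Of the 6 genes high in AGS cells, SNU601 cells averaged at least 8 in 5, which were CEACAM5 (9.67), CEACAM6 (11.33), ESRP1 (8.86), LYZ (11.84) and RNF43 (8.83), while FPR3 was at 3.02. Over the genes called at least 2-fold, the mean of SNU601 lay nearer to AGS than to MKN1 for 618 of 817 genes higher in MKN1 cells (75.6%) and for 460 of 703 lower ones (65.4%). SNU601 arrays entered the spread of the fit, so this placing is a description.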

How the data were processed

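Human gastric cancer cell lines were profiled on Affymetrix GeneChip Human Gene 2.0 ST arrays, with 1 array for each of 12 combinations of cell line and treatment. Per the labels and the submitters' processing notes, which name Affymetrix Expression Console and RMA without versions, the deposited values are log2 signals after background correction, quantile normalization and probe summary by the authors. They ranged from 0.286 to 13.0. RMA brings all arrays to 1 distribution, so a shift of total RNA between the lines is not visible.

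A gene symbol from the platform annotation was available for 16098 of 53617 transcript clusters (30.0%), and none of them carried several symbols. The other 37519 clusters are unnamed here. For each of 14884 symbols the cluster brightest on average over the 8 MKN1 and AGS arrays was kept, and the 8930 genes at or above the 40th percentile of that mean (4.62) were tested. The fit (limma 3.58.1, R 4.3.3) had fixed terms for line and treatment over all 12 arrays, with 6 residual degrees of freedom. P-values were adjusted by Benjamini-Hochberg over all tested genes. The change of the line difference with any compound was a contrast with 4 residual degrees of freedom. The fit was tested on simulated data. Intervals are 95% from the moderated fit.

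Named genes were the 10 highest and 10 lowest called differences with 1 sign in all pairs (leaving out LOC, LINC, antisense and uncharacterised symbols, which removed LOC650226), members of the gene lists, the extremes of the DMSO pair and of the compound contrast, and leading genes of the chromosomes described. The gene lists and this rule were chosen with earlier results of these data known. The number of arrays limits the precision, and nothing says that arrays came from separate cultures, so p-values measure only the spread between these arrays. Counts over 2 of the gene lists are not reported here.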

Additional observations from a re-analysis of the deposited data

Results flagged for a closer look

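Among the genes with the largest differences, an array stood apart from the other 3 of its line in 3 cases. CD38 was at 3.12 in AGS cells under JK139, below the other AGS arrays at 3.51 to 3.57. IGFBP3 was at 4.21 in AGS cells under JK136, above the others at 3.75 to 3.80. RNF43 was at 9.23 in AGS cells under Rhosin, below the others at 9.71 to 9.74. By chance about 1 in 20 groups of 4 would stand out in this way, and each line difference was far larger than these gaps. Of the transcript clusters without a gene symbol, 12811 lay above the filter value, and 7037 (54.9%) were called by limma between MKN1 and AGS cells. Of these, 1906 differed at least 2-fold, 826 higher and 1080 lower in MKN1 cells, and they entered no comparison of genes.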

How the results depend on the processing

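The 5981 genes called different and the 1520 called at least 2-fold moved by less than 1.5 times when only the 8 arrays entered, without the treatment term, under renormalization or median centring, with other filters, cluster rules, priors or array weights, and at an adjusted p under 0.01. Leaving out each treatment or each array in turn gave 5420 to 5850 and 1518 to 1577. A direct test against 2-fold (limma treat) called 966, a stricter null by construction. With every transcript cluster tested on its own, an alternative added after seeing the data, 13107 of 22324 clusters were called and 3494 at least 2-fold, since more features were tested. The balance of at least 2-fold calls turned to more lower than higher with the 60th percentile filter (488 higher, 526 lower) and over every cluster (1689 and 1805), and over every cluster also that of all calls (6419 and 6688). In the DMSO pair it turned with that filter (520 and 623), with the filter on the mean of 12 arrays (804 and 847) and with median centring (849 and 853). The DMSO pair gave 1143 (60th percentile filter) to 2182 genes (no filter), beside 1714. The compound contrast called 0 genes in limma under every alternative run. Of 707 genes with values kept for the text, 585 were called. None reversed in 17 alternatives, 39 lost the call and 41 gained it at least once. The 11 genes whose clusters were called in opposite directions, such as CIRBP and ZNF451, are represented by their brightest cluster. Each condition has 1 array and batches are not given, so no result separates line from culture. Low signals limit differences near the array's floor, so large differences are understated. The lines are paired by treatment, which was a term of the fit, and without it 5984 genes were called, 1520 at least 2-fold. The labels give no replicate numbers, so no other pairing was fitted.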
